A study of Mus musculus with 14 samples.

Results

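PU.1 binding was compared between blood progenitors and macrophages obtained from mouse embryonic stem cells in vitro. The data were 2 peak lists from chromatin immunoprecipitation followed by sequencing (ChIP-seq), 1 for PU.1 in hematopoietic progenitors (HP) and 1 for PU.1 in macrophages (MAC). They held 10943 and 82866 peaks, 93809 of the 158488 peaks in the 14 lists of the series. Peaks were chosen by list and split by an overlap of at least 1 bp into 331 HP only peaks, shared peaks (10612 HP peaks on 10611 MAC peaks) and 72255 MAC only peaks.

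All lists came from 1 embryonic stem cell line of strain 129 that carries a GFP reporter in the Brachyury gene, and the labels name no other allele and no treatment. The HP cells were sorted for CD41, and the MAC cells were CD11b-positive cells grown by further differentiation of CD41-positive cells, so both are culture models from 1 line. The same PU.1 antibody was named for both populations. Each population was represented by 1 list, so the differences below have no replicate check. Ranges in brackets are 95% intervals by the exact Clopper-Pearson method and account for counting error alone. The labelled cell types could not be checked against marker expression, since the lists hold positions only.

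PU.1, encoded by Spi1, is an ETS family transcription factor (TF) required for the myeloid and lymphoid lineages. It binds a GGAA core, often within a longer purine-rich stretch, and in macrophages it occupies enhancers together with factors such as C/EBP proteins and AP-1. It also acts with IRF4 and IRF8 at composite sites, and PU.1 and GATA1 oppose each other when blood cells choose between the myeloid and the erythroid fate. Macrophages depend on its targets, among them Csf1r, the receptor for the growth factor M-CSF.

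The sequences that carry the comparison are those under the peaks. For each class the first 3 peaks in file order that held the PU.1 consensus GAGGAAGT on either strand are printed, from GRCm38 (RefSeq), as 80 bases read on the strand that holds the copy nearest the peak centre. That copy is in capitals, and the sequence near F2rl2 holds a further one on the other strand, in lower case. The shared ones lie at Tet3 (chr6:83455470-83455549, plus strand, intron 874 bp after the start site, with 11 exonic bases), in an intron of Iqgap2 with F2rl2 as the nearest start site (chr13:95685833-95685912, plus strand) and in an intron of Actr2 (chr11:20112380-20112459, minus strand).
Tet3, shared: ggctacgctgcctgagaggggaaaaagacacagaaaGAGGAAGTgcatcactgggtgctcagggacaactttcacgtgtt
F2rl2, shared: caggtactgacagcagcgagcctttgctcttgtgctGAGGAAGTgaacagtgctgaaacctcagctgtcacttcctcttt
Actr2, shared: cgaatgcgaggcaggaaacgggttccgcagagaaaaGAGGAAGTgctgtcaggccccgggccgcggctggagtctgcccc

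The MAC only ones lie in an intron of Wipf1 (chr2:73526901-73526980, plus strand), between genes with Galnt15 as the nearest (chr14:31930626-31930705, minus strand) and between genes with Marco as the nearest (chr1:120467466-120467545, minus strand). Marco encodes a scavenger receptor of macrophages, and Wipf1 a partner of the actin regulator WASP.
Wipf1, MAC only: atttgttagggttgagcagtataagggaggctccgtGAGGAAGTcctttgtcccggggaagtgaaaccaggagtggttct
Galnt15, MAC only: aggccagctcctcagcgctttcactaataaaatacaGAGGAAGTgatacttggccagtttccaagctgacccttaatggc
Marco, MAC only: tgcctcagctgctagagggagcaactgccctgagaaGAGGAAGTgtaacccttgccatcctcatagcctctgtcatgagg

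The HP only ones lie in an intron of Map2k3 (chr11:60936155-60936234, plus strand) and between genes, with Cntnap5c (chr17:57671121-57671200, plus strand) and Lrig2 (chr3:104568593-104568672, minus strand) as the nearest.
Map2k3, HP only: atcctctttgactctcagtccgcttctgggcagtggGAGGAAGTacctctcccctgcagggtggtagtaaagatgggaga
Cntnap5c, HP only: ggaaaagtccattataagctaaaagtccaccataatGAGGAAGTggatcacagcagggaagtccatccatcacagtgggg
Lrig2, HP only: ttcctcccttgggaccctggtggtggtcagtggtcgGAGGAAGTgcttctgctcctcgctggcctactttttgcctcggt

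Nearly all PU.1 sites of the progenitor list were found again in the macrophage list. Of the 10943 HP peaks, 97.0% (96.6 to 97.3%) overlapped a MAC peak, whereas 12.8% (12.6 to 13.03%) of the 82866 MAC peaks overlapped an HP peak. The overlapping peaks lay on top of each other, with centres a median of 13 bp apart and 92.5% of them within 50 bp. The authors chose the calling threshold of each list by eye, with the stricter p-value for the MAC list. The lengths of the lists therefore do not measure amounts of binding, and the 2 shares depend on them.

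The equal-length check used the first 10943 rows of the MAC list. Of these, 52.5% (51.6 to 53.5%) overlapped an HP peak, and the same share of HP peaks overlapped them. The files carry no height or score, and what orders their rows is not stated. The position in the file nevertheless went with sharing. In successive bins of 10943 MAC rows the shared part fell from 52.5% to 19.6%, 10.2%, 5.30%, 3.60%, 2.36% and 1.96%, and it was 2.43% in the last 6265 rows. In the HP list it was 99.6% in the first 1368 rows and 90.9% in the last 1367. Among 10613 overlapping pairs, Spearman's rho between the row in one list and the row in the other was 0.49, given as a description. Of 2718 such pairs from the first 2735 HP rows, 81.4% had their MAC peak in the first 10943 MAC rows, against 29.5% of 2553 pairs from the end of the HP list. The first 5 MAC rows, near Slc2a1, Lifr, Nod2, Actr2 and 1700029H14Rik, overlapped HP rows 9, 19, 26, 3 and 14. The first 5 HP rows, near Tet3, F2rl2, Actr2, Gnpda1 and Alox5ap, overlapped MAC rows 26, 136, 4, 144 and 113.

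**Figure D1:**
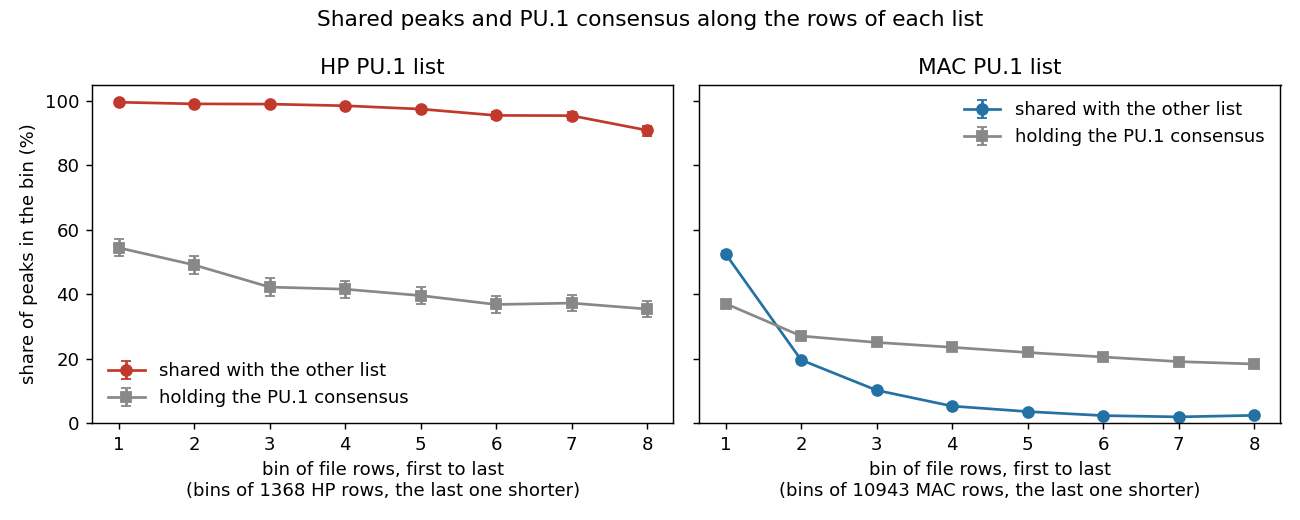
Share of peaks (%, with exact 95% intervals) that overlap the other PU.1 list, and share that hold the PU.1 consensus, along the rows of the HP list (left, bins of 1368 rows) and the MAC list (right, bins of 10943 rows). Sharing stayed between 90.9% and 99.6% along the HP list and fell from 52.5% to 1.96% over the first 7 bins of the MAC list, while the consensus share fell in both, from 54.5% to 35.4% in HP and from 37.1% to 18.4% in MAC.

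The classes were also compared for their place relative to coding genes. Promoter-proximal peaks are those centred at most 2 kb from a transcription start site (TSS) of any coding gene. Of the shared peaks, 18.4% (17.7 to 19.2%) were promoter-proximal, as were 17.98% (17.7 to 18.3%) of the MAC only peaks, 12.4% (9.07 to 16.5%) of the HP only peaks and 3.43% of 400 bp windows taken evenly over the genome. Within the first 10943 MAC rows, 19.4% (18.3 to 20.4%) of the shared and 14.4% (13.5 to 15.4%) of the MAC only peaks were promoter-proximal, and the shared share was the higher in each of 8 stretches of 1368 rows (the last 1367) of them. In bins of 10943 rows it was the higher in 2 of 8, and in the last bin 10.5% (6.14 to 16.5%) of shared and 20.3% (19.3 to 21.3%) of MAC only peaks were promoter-proximal. The median distance to the nearest coding TSS was 18295 bp for shared peaks, 18880 bp for MAC only peaks, 43970 bp for HP only peaks and 68341 bp for genome windows. The whole-list likeness of shared and MAC only peaks therefore did not hold along the file, and HP only peaks lay farther out.

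MAC only peaks lay nearer to progenitor sites than genome windows did. Of the 72255 MAC only peaks, 20.9% (20.6 to 21.2%) had an HP peak within 10 kb and 57.4% (57.01 to 57.7%) within 50 kb, against 7.39% and 26.6% of genome windows. Those in the first 10943 rows gave 22.0% and 59.8%, and the later ones 20.8% and 57.2%. Genome windows also lay farther from a coding TSS, at a median of 68341 bp against 18880 bp for MAC only peaks. The part of this in the contrast was not tested.

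The 331 HP only peaks were often close to a MAC peak without touching it. A MAC peak lay within 1 kb (centre to centre) of 34.7% (29.6 to 40.1%) of them and within 2 kb of 43.2% (37.8 to 48.7%), against 6.03% and 10.8% of genome windows. The HP only peak that came first in the file, row 315 near Tmem247, was 627 bp from the nearest MAC centre. The next, row 587 in Ptpre, was 570 bp away, and row 719 in Map2k3 was 759 bp away. An overlap rule thus places peaks that are neighbours of macrophage sites in the HP only class. HP only peaks came late in the HP list, with 124 of the last 1367 rows and 5 of the first 1368, and 1 lay on the mitochondrial genome, which was left out of gene and sequence counts.

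Sites already occupied in progenitors held the PU.1 consensus more often than sites listed in macrophages only. GAGGAAGT was present on either strand in 42.4% (41.5 to 43.4%) of 10612 shared peaks, 21.8% (21.5 to 22.1%) of MAC only peaks and 31.5% (26.5 to 36.8%) of 330 HP only peaks. It was present in 2.37% of genome windows, and in 2.96%, 2.79% and 1.97% of windows 2 kb to either side of the same classes of peaks. The share fell along the rows of both lists, and shared peaks lie earlier in the MAC list than MAC only peaks, so the classes were compared within bins of rows. In the first 10943 MAC rows it was 44.2% (42.9 to 45.5%) in shared against 29.3% (28.02 to 30.5%) in MAC only peaks. Over the 8 bins of 10943 rows it ranged from 37.6% to 52.0% in shared and from 17.5% to 29.3% in MAC only peaks. The shared class was the higher in each bin, and also in each of 8 stretches of 1368 rows within the first bin, from 49.6% against 38.7% in the first stretch to 41.7% against 26.7% in the last. The intervals of the 2 classes did not overlap in any of these bins and stretches. Even the latest MAC rows held it in 18.4% (17.4 to 19.4%), far above the genome windows.

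The consensus sat at the summit. Among shared peaks that held it, the copy nearest to the centre was a median of 11 bp from it and within 50 bp in 91.0%, and the same measures were 11 bp and 89.0% for MAC only and 19 bp and 86.5% for HP only peaks. More than 1 copy was found in 2.67% (2.37 to 2.99%) of shared and 0.815% (0.751 to 0.883%) of MAC only peaks.

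**Figure D2:**
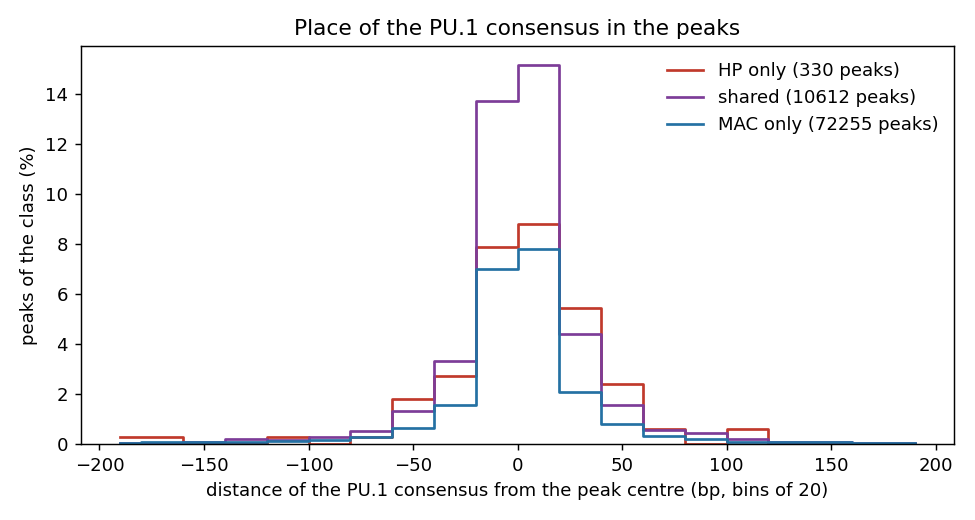
Distance of the PU.1 consensus copy nearest to the peak centre (bp, bins of 20 bp) as a share of all peaks of the class (%), for HP only, shared and MAC only peaks. All 3 classes peak at the centre, with the shared class highest.

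The bases before the consensus differed as well. The base 3 positions before it was A in 53.1% (51.6 to 54.5%) of 4500 shared peaks with a copy, in 56.7% (46.7 to 66.4%) of 104 HP only peaks and in 34.6% (33.9 to 35.4%) of 15738 MAC only peaks. In the first 10943 MAC rows the same share was 51.5% (49.6 to 53.5%) in shared and 37.2% (34.8 to 39.7%) in MAC only peaks. The base directly before the consensus was A in 56.3% (54.3 to 58.2%) and 46.9% (44.4 to 49.5%) of them. At Tet3 and Actr2, printed above, the stretch before the capitals is a run of A.

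A shorter form of the motif was more common in every class. The letters GGAAGT, which are part of GAGGAAGT, were found in 82.4% (81.7 to 83.1%) of shared, 65.4% (65.1 to 65.8%) of MAC only and 68.5% (63.2 to 73.5%) of HP only peaks, against 21.4% of genome windows. Most peaks of every class therefore held an ETS core of this form. In percentage points, shared and MAC only peaks lay closer together with it than with GAGGAAGT, while shared and HP only peaks lay farther apart.

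Sites of other factors were searched on both strands in the same way. The PU.1-IRF composite GGAANTGAA shares its core with the PU.1 consensus, and a copy of both can overlap. It was found in 13.2% (12.3 to 14.1%) of MAC only and 8.70% (7.98 to 9.46%) of shared peaks of the first 10943 rows, against 4.42% of genome windows. In these rows the order was the reverse of that for the PU.1 consensus. The MAC only share was the higher in each of the 8 stretches of the first rows, from 32.5% (25.4 to 40.3%) against 9.54% (7.94 to 11.3%) in the first stretch to 12.6% against 8.80% in the last, and in 5 of 8 bins along the whole list, with intervals that did not overlap in 4 stretches and 2 bins. Over all peaks the shares were 8.56% (8.36 to 8.76%) of MAC only and 7.93% (7.43 to 8.46%) of shared peaks, with overlapping intervals. The AP-1 sequence TGANTCA, bound by Jun and Fos proteins, was in 18.1% (17.0 to 19.1%) of MAC only and 15.0% (14.1 to 15.9%) of shared peaks of the first rows, against 11.6% of genome windows. The RUNX sequence TGTGGTT showed the other order, with 9.37% (8.60 to 10.2%) and 11.9% (11.1 to 12.7%), against 9.15% of genome windows. By stretch of the first rows, the MAC only share was the higher in 8 of 8 for AP-1, and the shared share in 7 of 8 for RUNX. The intervals were apart in 1 stretch for each.

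The C/EBP sequence TTGCNNAA was in 19.7% (18.6 to 20.8%) of MAC only and 16.9% (15.9 to 17.9%) of shared peaks of the first rows, around the 18.1% of genome windows and above the 15.2% of windows 2 kb from the first-row peaks. The MAC only share was the higher in each of the 8 stretches, with intervals apart in 1. The GATA sequence AGATAA was in 31.2% (26.2 to 36.5%) of HP only peaks, in 19.5% (18.8 to 20.3%) of shared and 17.0% (16.7 to 17.3%) of MAC only peaks, against 20.3% (17.3 to 23.6%) in windows 2 kb from HP only peaks and 24.7% of genome windows. The interval of the HP only class lay above all of these. The IRF sequence GAAANNGAA was in 16.7% (12.8 to 21.1%) of HP only, 14.2% (13.5 to 14.8%) of shared and 14.03% (13.8 to 14.3%) of MAC only peaks, with overlapping intervals. Base composition moved with the GATA share, since the median GC content was 43.2% in HP only and 48.8% in shared peaks, and its part in the result was not tested.

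**Figure D3:**
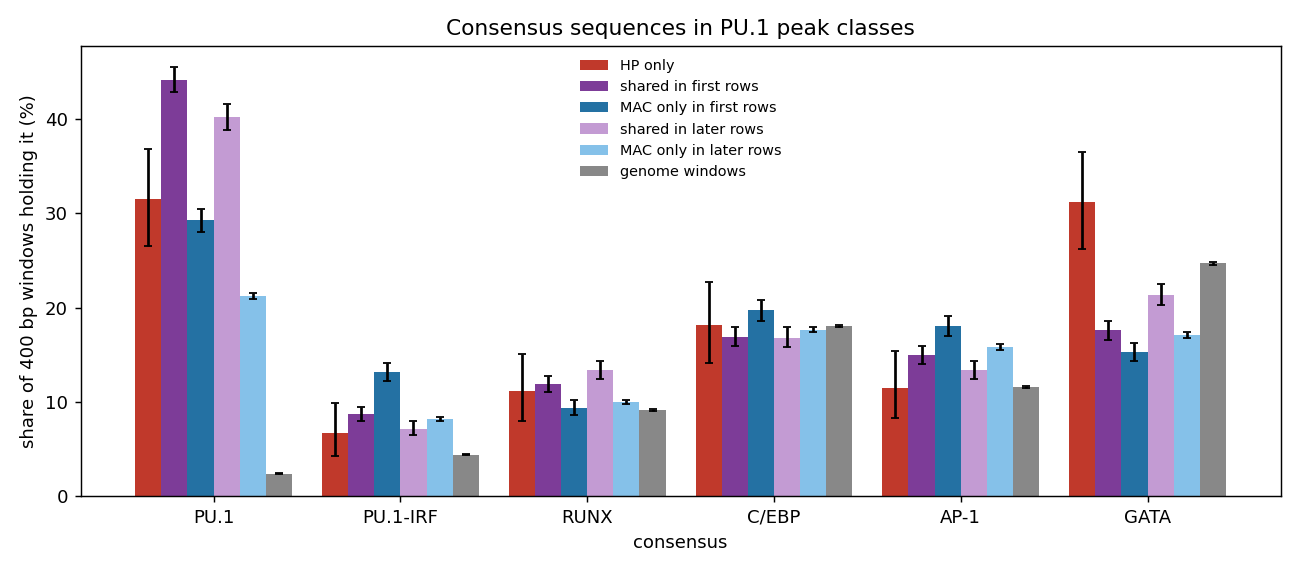
Share of 400 bp windows (%, with exact 95% intervals) that hold each consensus on either strand, for HP only peaks, for shared and MAC only peaks of the first 10943 MAC rows and of the later rows, and for genome windows. The PU.1 consensus is highest in shared peaks in both sets of rows (among the later rows, shared peaks lie earlier in the file than MAC only peaks), and the PU.1-IRF composite is highest, at 13.2%, in MAC only peaks of the first rows.

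The other 12 lists of the series give a further readout of the same regions. C/EBPβ in macrophages, the longest of them with 55471 peaks, lay on 36.7% (35.8 to 37.6%) of shared, 27.3% (27.0 to 27.6%) of MAC only and 14.8% (11.2 to 19.1%) of HP only PU.1 peaks. In the first 10943 MAC rows, C/EBPβ lay on 44.5% (43.2 to 45.8%) of shared and 45.2% (43.9 to 46.6%) of MAC only peaks. Within narrower stretches of rows the order was the reverse of that over the whole list. In the first 1368 MAC rows it lay on 56.0% (53.2 to 58.8%) of shared and 71.8% (64.2 to 78.5%) of MAC only peaks. The MAC only share was the higher in 7 of the 8 stretches of the first rows, with intervals that did not overlap in 3, and in each of the 8 bins of 10943 rows. In the bin of rows after 32829 the shares were 19.5% (16.3 to 22.9%) in shared and 25.9% (25.1 to 26.8%) in MAC only peaks.

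Lists from progenitors showed another order. HP RUNX1 peaks lay on 1.50% (1.20 to 1.84%) of shared and 0.308% (0.176 to 0.4997%) of MAC only peaks of the first MAC rows. HP GATA2 peaks lay on 0.905% (0.676 to 1.18%) and 0.0962% (0.0313 to 0.224%), and HP GATA1 peaks on 0.365% (0.226 to 0.558%) and 0.0192% (0.000487 to 0.107%). HP C/EBPβ peaks lay on 4.09% (3.59 to 4.63%) and 1.60% (1.27 to 1.98%), and those of the repressor GFI1B in HP on 1.50% (1.20 to 1.84%) and 0.751% (0.534 to 1.02%). In each of these 5 comparisons the shared class was higher and the intervals did not overlap, and it was the higher in each of the 8 stretches of the first rows. Along the whole list it was the higher in each of the 8 bins for HP RUNX1, HP GATA2 and HP GFI1B, in 7 for HP C/EBPβ and in 6 for HP GATA1. Within single stretches of the first rows the intervals mostly overlapped, and they were apart in 2 of 8 for HP RUNX1, 3 for HP C/EBPβ, 1 for HP GATA2 and 0 for HP GATA1 and HP GFI1B. These lists came from the same sorted cell type as the HP PU.1 list, each from a sample of its own, and are short, with 250 to 2716 peaks. The order was not particular to progenitor lists. MAC RUNX1, a list of 72 peaks, lay on 0.400% (0.254 to 0.600%) of shared and 0.0962% (0.0313 to 0.224%) of MAC only peaks of the first rows.

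Seen from the HP lists, more of their sites lay on the full MAC PU.1 list than on the HP PU.1 list. Of 977 HP RUNX1 peaks, 20.0% (17.5 to 22.6%) lay on an HP PU.1 peak and 62.8% (59.7 to 65.9%) on a MAC PU.1 peak. Of 2716 HP C/EBPβ peaks, the shares were 14.9% (13.6 to 16.3%) and 52.5% (50.6 to 54.4%), and of 530 HP GATA2 peaks 19.8% (16.5 to 23.5%) and 48.7% (44.3 to 53.0%). The longer MAC list can by itself give the higher share. Of the 331 HP only PU.1 peaks, 3.02% (1.46 to 5.49%) lay on an HP RUNX1 peak, against 1.74% (1.50 to 2.01%) of shared peaks. The shares were 2.11% and 3.76% for HP C/EBPβ, 2.11% and 1.91% for HP GFI1B, 0.906% and 0.961% for HP GATA2, and 0.604% and 0.349% for HP GATA1, with overlapping intervals in all 5.

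Each peak was next given to the coding gene with the nearest TSS. Of 21000 coding genes, 6420 (30.6%) were nearest to at least 1 HP peak, 15776 (75.1%) to at least 1 MAC peak and 6351 (30.2%) to at least 1 of the first 10943 MAC rows. Of the 6420 HP-bound genes, 6396 (99.6%) had a MAC peak too and 24 did not. At equal length, 4650 genes were bound in both, 72.4% (71.3 to 73.5%) of the HP-bound and 73.2% (72.1 to 74.3%) of the first-row-bound genes. A MAC peak without an HP peak was found at 9380 genes (44.7%).

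Genes with several progenitor sites also had more MAC only peaks. Nearly all HP peaks are MAC peaks too, so the shared peaks were left out here. Genes with no HP peak had a median of 1 MAC only peak, those with 1 HP peak a median of 3, those with 2 a median of 6, and those with 5 or more a median of 19. These genes also have more genome around them. Counted over the territory of each gene, that is the stretch of genome closer to its TSS than to any other coding TSS, MAC only peaks rose from 2.03 per 100 kb at genes with no HP peak to 2.94 at 1, 3.16 at 2 and 4.88 at 5 or more. HP-bound genes held 59.3% (58.9 to 59.6%) of MAC only peaks in 46.7% of the genome. At least 10 MAC peaks, shared ones included, were found at 2266 genes (10.8%). At least 3 HP peaks were found at 1079 genes (5.14%).

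Genes with the most HP peaks included signalling and TF genes of blood cells. Pik3r1, a regulatory subunit of PI3 kinase, had 12 HP and 46 MAC peaks, and Tomm20 had 12 and 41. Irs2, an adaptor of insulin and cytokine receptors, had 11 and 67, Plcg2, a phospholipase downstream of Fc receptors, 11 and 27, and Sgms1 and Zfhx3 11 each with 41 and 50. Ptprc, which encodes CD45, the phosphatase of all white blood cells, had 10 and 32, and the ETS factor gene Etv6 had 10 and 40. Klf6 had 10 and 40, and Adgrl2, whose territory spans 2293 kb, 10 and 71. In the first 10943 MAC rows these genes had 7 to 15 peaks, except Klf6, which had 2. Some of these counts rest on distant peaks. Counting peaks at most 10 kb outside the gene body, Klf6 had 1 HP and 6 MAC peaks, Irs2 0 and 8, Tomm20 1 and 2, Pik3r1 4 and 12, and Adgrl2 4 and 8, while Sgms1 had 12 and 39 and Etv6 10 and 43.

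Genes with the most MAC peaks included several TF genes in wide territories, of 321 to 2293 kb for the first 10. Runx1, a master factor of blood formation, led with 82 MAC and 9 HP peaks, followed by Lpp with 79 and 9. Myc had 66 and 8, Zmiz1 66 and 9, Trib1, which controls the degradation of C/EBPα, 64 and 6, and Id2, an inhibitor of helix-loop-helix factors, 62 and 5. Rreb1 had 60 and 7, and Maf, a bZIP factor of macrophages, 59 and 7. Each of the first 10, which also held Adgrl2 and Irs2, had HP peaks, and none had an HP only peak. In the equal-length check Id2 had 13 peaks against 5 in HP and Maf 14 against 7, the largest excesses over HP, a ranking chosen after its values were seen. Counting peaks at most 10 kb outside the gene body, Runx1 had 43 MAC and 5 HP peaks, Myc 5 and 1, Maf 4 and 0, and Id2 2 and 0.

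By nearest TSS, the genes with the most MAC peaks and no HP peak were Iqsec1 with 38, Cd47, the "do not eat me" signal read by phagocytes, with 37, Nav2 with 29, and Nars2 and Nr3c1, the glucocorticoid receptor gene, with 27 each. Foxo1 and Tenm4 had 23 each, as did Trak1, and Cacna1a and Cpped1 24 each. In the first 10943 MAC rows these genes had 1 to 4 peaks, so the greater part of their sites came from later rows. Counting peaks at most 10 kb outside the gene body, Nav2 had 2 HP peaks and Cacna1a 1, and the MAC peaks numbered 34 at Iqsec1, 7 at Cd47, 9 at Nars2, 10 at Nr3c1 and 2 at Foxo1.

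Some genes had nearly as many HP as MAC peaks by nearest TSS. Junb, an AP-1 gene in a territory of 10.2 kb, had 5 of each, all shared. Gnai2, a G protein subunit gene, had 5 and 6, Pml and Pip4k2b 5 and 7, and Ccr1, a chemokine receptor gene, 6 and 9. Tm6sf1 had 5 and 8, and Adamtsl4, Gngt2 and Alox5 6 and 10. Counting peaks at most 10 kb outside the gene body, Junb had 6 HP and 9 MAC peaks, Gnai2 6 and 7, Pml 6 and 14, and Ccr1 0 and 2. Alox5 encodes the lipoxygenase that starts leukotriene synthesis, and Alox5ap, its partner, was the nearest gene of the fifth row of the HP list. HP only peaks seldom met at 1 gene. Marchf1, Pcdh7 and Tenm3 had 3 each, in territories of 1063, 3905 and 2701 kb. Adam34l, Ccr1, Cdh9, Inpp5f, Irak3 and Rab29 had 2 each. Each of these genes also had MAC peaks.

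Gene lists for functions of macrophages, progenitors and other tissues were described by counts. Myeloid TF genes had an HP peak in 28 of 30 cases, a MAC peak in 30 and a first-row MAC peak in 28, against 30.6%, 75.1% and 30.2% of all coding genes, with medians of 2 HP and 13.5 MAC peaks against 0 and 2 over all coding genes. Cebpb had 6 HP and 34 MAC peaks, Irf8, which partners PU.1, 4 and 34, Klf4 2 and 40, and Mef2c 6 and 27. Irf5 and Bach1 had no HP peak and 11 and 20 MAC peaks. When a peak had to lie at most 10 kb outside the gene, 20 of 30 were bound in HP, against 6495 of 21000 coding genes, so a part of the count rests on distant peaks.

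Receptors for growth factors and cytokines had an HP peak in 19 of 21 cases, against 30.6% of all coding genes. Tgfbr2 had 4 HP and 38 MAC peaks, Ifngr1, a receptor chain for interferon gamma, 4 and 21, and Il10ra 1 and 17. The 2 without an HP peak were Csf2rb and Csf2rb2, with 7 and 9 MAC peaks. Of the genes for Fc receptors and their signalling, which carry antibody signals into the cell, 20 of 24 had an HP peak and 23 a MAC peak, against 30.6% and 75.1% of all coding genes, and the list held 4.53 HP peaks per 100 kb against 0.401 over all genes, the highest density of the 20 lists. The kinase genes Lyn and Syk had 7 and 5 HP peaks and 15 and 26 MAC peaks. The adaptor gene Lcp2 and Inpp5d, which encodes the inhibitory inositol phosphatase SHIP1, had 6 HP peaks each, while Tyrobp had 2 and Fcer1g 1. The activating receptor gene Fcgr3 had 4 MAC peaks and no HP peak.

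Leukocyte adhesion and cytoskeleton genes had an HP peak in 23 of 26 cases, a first-row MAC peak in 19 and a MAC peak in 26, where all coding genes gave 30.6%, 30.2% and 75.1%. Elmo1, which drives engulfment, had 7 HP and 46 MAC peaks, Itgb2, which encodes the beta chain that pairs with CD11b, 4 and 12, and Itga4, the integrin alpha 4 gene, 4 and 17. Lsp1, Spn and Selplg had no HP peak and 6, 4 and 7 MAC peaks.

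Lists for the working functions of macrophages were bound in HP above the 30.6% over all coding genes. Pattern recognition receptors had an HP peak in 17 of 27 cases, lysosomal genes in 20 of 28, inflammatory mediators and chemokine receptors in 19 of 29, and oxidase and granule proteins in 13 of 22. With the 10 kb limit on distance the counts were 16 of 27, 18 of 28, 13 of 29 and 13 of 22, against 30.9%. By nearest TSS, all members of the first 3 lists had a MAC peak, as did 20 of 22 of the last, against 75.1% of all coding genes. The sensors Tlr2, Tlr4, Tlr5 and Tlr9 had 1, 2, 2 and 2 HP peaks, and Tlr1, Tlr7 and Tlr8 none. Marco had 2 HP and 17 MAC peaks. Cybb, the catalytic subunit gene of the phagocyte oxidase, had 8 MAC peaks and no HP peak, whereas its cytosolic partners Ncf1 and Ncf4 had 4 HP peaks each. Mpo, a granule enzyme of early myeloid cells, had 4 HP and 7 MAC peaks. Among cathepsin genes, Ctsd had 3 HP and 10 MAC peaks, and Ctsl 0 and 8.

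At equal length 16 of the 20 lists differed by at most 2 bound members, 2 had more members bound in macrophages, and 2 had more bound in HP, namely leukocyte adhesion and cytoskeleton genes (above) and B cell genes (8 of 19 in HP and 5 in the first MAC rows). Of all 21000 coding genes, 30.6% had an HP peak and 30.2% a first-row MAC peak. A first-row peak without an HP peak (gained) was found at 1701 of them, and the reverse (lost) at 1770. Cell cycle and replication genes had an HP peak in 9 of 28 cases, near the 30.6% over all genes. A first-row MAC peak was found at 15 of them, against 30.2% over all genes, with 6 genes gained and 0 lost. Mki67, a proliferation marker, was among the gained with 3 first-row peaks, in a territory of 621 kb, the widest of that list. Lipid handling genes had an HP peak in 10 of 20 cases and a first-row peak in 13, against 30.6% and 30.2%, with 4 gained and 1 lost. Pparg, a lipid-sensing nuclear receptor, had 0 HP and 15 MAC peaks, none of them in the first rows. Abca1, the cholesterol exporter gene, had 4 HP, 28 MAC and 4 first-row peaks. Antigen presentation genes had an HP peak in 8 of 18 cases and a first-row peak in 9, against the same 30.6% and 30.2%. Under the same 10 kb limit, all coding genes gave 30.9% in HP and 31.3% in the first rows. The cell cycle counts were then 8 and 11 of 28 and the lipid counts 11 and 13 of 20, so both differences were smaller there. B cell genes then gave 9 and 8 of 19, and T cell genes, 7 and 8 of 21 by the nearest TSS, gave 5 and 9, so these small differences between lists moved with the rule. The other lists that differed by 3 or more under that limit, in HP and then in the first rows, were growth factor and cytokine receptors with 17 and 20 of 21, inflammatory mediators and chemokine receptors with 13 and 16 of 29, oxidase and granule proteins with 13 and 10 of 22, and leukocyte adhesion and cytoskeleton genes with 22 and 19 of 26.

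Progenitor TF genes had an HP peak in 23 of 27 cases (18 with the 10 kb limit), a first-row MAC peak in 21 and a MAC peak in 26, against 30.6%, 30.2% and 75.1% of all coding genes. Besides Runx1, Myc and Etv6, these included the ETS gene Fli1 with 8 HP, 28 MAC and 9 first-row peaks, and Bcl11a with 5, 24 and 2. Tal1, Lmo2 and Lyl1 had 1, 2 and 2 HP peaks and 10, 18 and 11 MAC peaks. Gata2 had 6 MAC peaks and no HP peak. Summed over the list, the HP peaks numbered 78, the first-row MAC peaks 63 and the MAC peaks 472, against 10942, 10943 and 82866 over all coding genes.

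By nearest TSS, erythroid genes had the lowest share of bound members of the 20 lists. An HP peak was found at 4 of 23 and a MAC peak at 13 of 23, against 30.6% and 75.1% of all coding genes. With the 10 kb limit a MAC peak was found at 17 of 23, still the lowest share of the 20 lists, and an HP peak at 6 of 23, which was not the lowest, against 76.5% and 30.9% of all coding genes. Per 100 kb of territory the list held 0.472 HP and 4.88 MAC peaks, against 0.401 and 3.04 over all genes. The adult globin genes Hba-a1, Hba-a2, Hbb-bt and Hbb-bs and the erythroid TF gene Klf1 had no peak in either list by nearest TSS, and Gata1 and Epor had 3 and 4 MAC peaks and no HP peak. Megakaryocyte and platelet genes had an HP peak in 9 of 22 cases, muscle and heart genes in 6 of 23, neuronal genes in 8 of 24 (5 with the 10 kb limit, against 30.9%), T cell genes in 7 of 21 and B cell genes in 8 of 19. Endothelial genes had one in 15 of 24. Ribosomal protein genes, active in every cell, had one in 15 of 33. These stand beside the 30.6% over all coding genes.

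**Figure D4:**
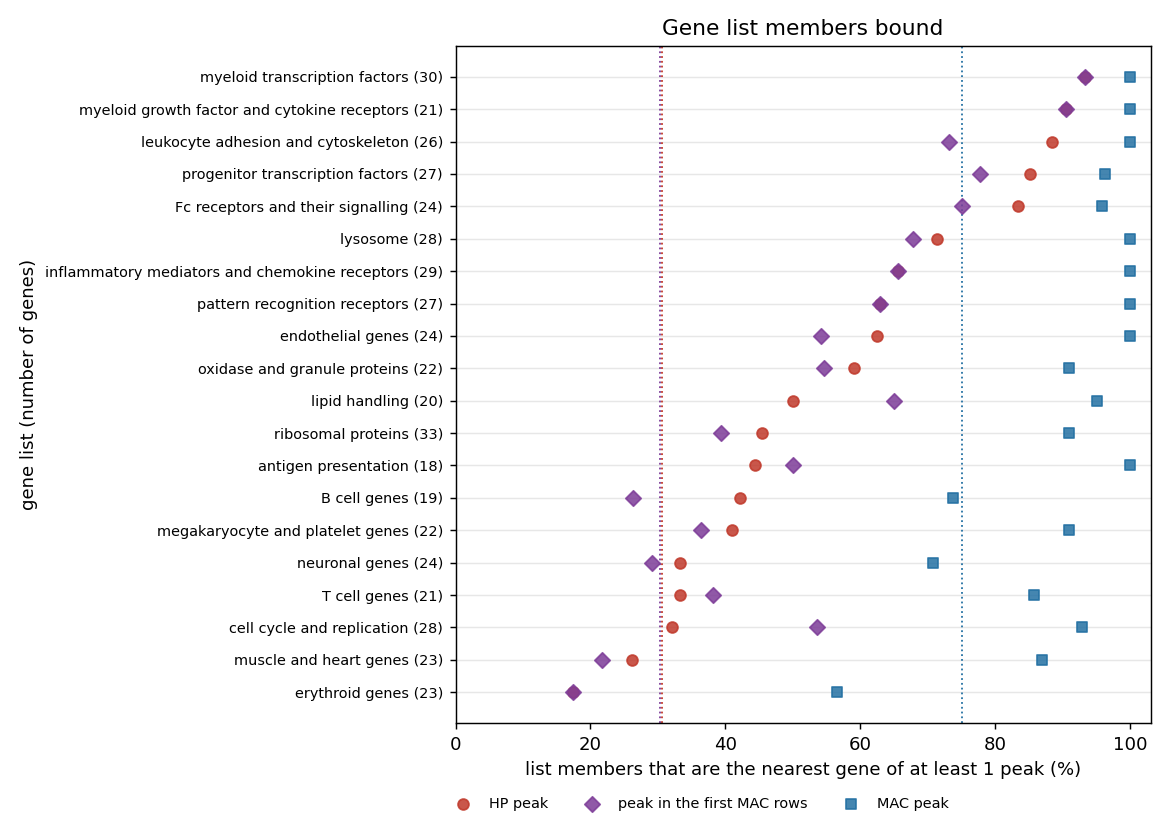
Share of the members of 20 gene lists (%, number of genes in brackets) that are the nearest coding gene of at least 1 HP peak (circles), 1 peak of the first 10943 MAC rows (diamonds) or 1 MAC peak (squares). Dotted lines give the same shares over all 21000 coding genes (30.6%, 30.2% and 75.1%), and the lists run from 28 of 30 myeloid TF genes with an HP peak to 4 of 23 erythroid genes.

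At the locus of Spi1 itself, on chromosome 2 (gene at chr2:91082405-91115759, plus strand), 3 HP peaks lay between 20 kb before and 30 kb after the 5′ end, all of them shared, among 14 MAC peaks. The HP peak that came first in its file, row 211, had its centre 11.7 kb upstream of Spi1 and overlapped MAC row 3847. It is assigned by distance to Slc39a13, whose TSS is 389 bp away, so it is not among the 2 HP and 13 MAC peaks counted for Spi1. It held no copy of GAGGAAGT and 1 of GGAAGT, in capitals here, in 300 bases around its centre (chr2:91070555-91070854, plus strand, in an intron of a transcript of no coding gene). A MAC only peak, row 55103, had its centre 1070 bp upstream of the annotated start of Spi1, between genes, with the same 6 letters once (chr2:91081185-91081484, plus strand).
Spi1, 11.7 kb upstream, shared: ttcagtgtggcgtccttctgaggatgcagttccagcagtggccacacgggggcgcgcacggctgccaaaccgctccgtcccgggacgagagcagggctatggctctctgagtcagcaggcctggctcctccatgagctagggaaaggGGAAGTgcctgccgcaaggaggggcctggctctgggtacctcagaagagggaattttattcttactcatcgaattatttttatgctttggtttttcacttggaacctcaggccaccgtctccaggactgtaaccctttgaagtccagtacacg
Spi1, 1070 bp upstream, MAC only: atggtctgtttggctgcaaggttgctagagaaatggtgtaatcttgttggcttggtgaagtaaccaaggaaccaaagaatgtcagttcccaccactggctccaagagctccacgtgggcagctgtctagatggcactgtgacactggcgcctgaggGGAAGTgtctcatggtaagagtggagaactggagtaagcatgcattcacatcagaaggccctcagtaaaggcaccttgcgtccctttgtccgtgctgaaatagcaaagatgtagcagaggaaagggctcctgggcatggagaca

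The second HP peak of Spi1, row 1367, lay 677 bp after the TSS in an intron and overlapped MAC row 338, as well as peaks of HP C/EBPβ, HP RUNX1 and MAC C/EBPβ. The third, row 6421, lay 2337 bp after it and overlapped MAC row 5208. The peak centred 65 bp upstream of this TSS was MAC only and came at row 23346, and a further MAC only peak, row 44051, was centred 3 bp from a TSS annotated within the gene.

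At Csf1r, on chromosome 18, 4 HP peaks were found among 18 MAC peaks. They lay 248, 3150, 15225 and 25969 bp after the TSS, at HP rows 6581, 3692, 1488 and 6912. Of the 4 MAC partners, the one at 15158 bp, row 8461, was in the first 10943 rows. The MAC peak that came earliest at this gene, row 3598, lay 13392 bp upstream and had no HP partner. The pair near the TSS and that at 3150 bp also overlapped MAC C/EBPβ peaks.

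Itgam, which encodes CD11b, the antigen used to sort the MAC cells, had 2 HP and 10 MAC peaks. The HP peak 13708 bp upstream was at HP row 1664 and MAC row 20610, and that 3129 bp after the TSS at HP row 8126 and MAC row 3319, so the 2 sites changed places in file order. Both overlapped MAC C/EBPβ peaks, and the MAC peak 13 bp from the TSS, row 23435, had no HP partner. Itga2b, which encodes CD41, the antigen used to sort the HP cells, had 2 HP and 6 MAC peaks. The HP peak 362 bp upstream of the TSS, row 313, overlapped an HP GATA2 peak and MAC row 6926, and that 8985 bp upstream, row 3729, overlapped MAC row 5884. Both PU.1 sites at the progenitor marker gene were thus still listed in macrophages, within the first 10943 rows. Hhex, a homeobox TF gene, had 1 HP peak, row 292, at 13613 bp after the TSS, and 12 MAC peaks, of which the partner of that peak, row 3509, was the only one in the first 10943 rows.

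**Figure D5:**
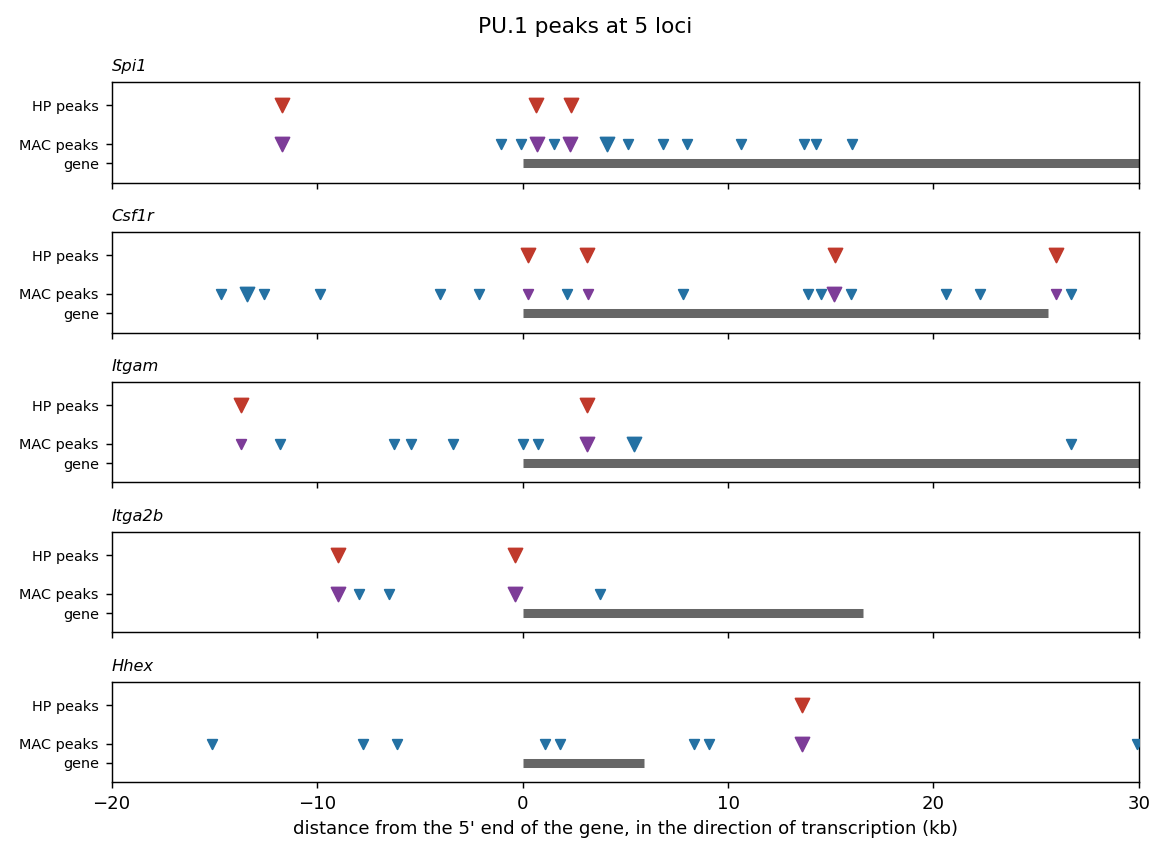
PU.1 peaks at Spi1, Csf1r, Itgam, Itga2b and Hhex by distance (kb) from the 5′ end of the gene in the direction of transcription, with the gene as a dark bar. HP peaks (upper row, red) and MAC peaks (lower row) are triangles, purple where the MAC peak overlaps an HP peak and blue where it does not, and larger MAC triangles lie in the first 10943 MAC rows. Every HP peak shown has a MAC partner.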

How the data were processed

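ChIP-seq peak lists of PU.1 (Spi1) in HP and MAC cells were used, with the other 12 lists as a further readout. The authors trimmed reads with CutAdapt, aligned them to mm10 (GRCm38) with Bowtie, kept uniquely placed reads, removed duplicates with Picard, called peaks with MACS against the input of the stage at a p-value set by eye for each list, refined them with polyPeak and centred windows on the summit. Versions of these tools are not given in the sources used here. The deposited values are positions in bp, with no count, signal, score or p-value, every peak being 400 bp wide. Sequencing depth was not used here.

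Peaks were split by an overlap of at least 1 bp and assigned to the nearest of 26032 TSS of 21000 RefSeq coding genes (GRCm38). Genome windows are every 25th gap-free 400 bp window (255943 in all), where all windows had been planned. Consensus sequences were searched on both strands. No test was run, since each group was 1 list, and intervals compare lists and not conditions. The members, the 20 gene lists (487 of 490 genes matched) and the consensus sequences were chosen with earlier results of these data known. Genes were named by rule: members of the lists, the 10 genes with the most HP, MAC or HP only peaks, or MAC peaks without an HP peak, the 10 highest ratios of HP to MAC peaks at 5 or more HP peaks, the nearest genes of the first 5 rows, and 5 loci. Some genes that the rule names are not reported here. Alternatives were the overlap rule, equal-length sets of MAC rows, the gene rule, the promoter distance, the consensus and its window. Calculations used Python 3.11.15, NumPy 2.4.6, SciPy 1.17.1 and Matplotlib 3.10.9, tested on simulated data.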

Additional observations from a re-analysis of the deposited data

How the results depend on the processing

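Each group was 1 list, so no replicate could be left out. No paired analysis was possible because no group had replicates. The share of HP peaks found again in MAC was 95.9% with an overlap of 200 bp and 95.04% with centres at most 100 bp apart, but 52.5% against the first MAC rows and 12.9% against evenly spaced MAC rows of the same number. The share of MAC peaks on HP peaks was 12.6% by centres and 52.5% in the first rows. MAC-bound genes numbered 6351 with the first and 6567 with evenly spaced rows, and 72.4% of HP-bound genes had a first-row peak (99.8% had a MAC peak with the 10 kb rule, chosen after seeing the data). In the order HP only, shared and MAC only, the PU.1 consensus share was 68.5%, 82.4% and 65.4% with GGAAGT. For shared and MAC only peaks it was 41.2% and 20.9% in the central 200 bp, 44.6% and 24.2% in peaks over 2 kb from a TSS, and 44.2% and 29.3% in the first rows (added after seeing the data, as were the other values by class within the first rows, their stretches and the bins). The promoter shares were 8.48%, 13.7% and 13.5% within 1 kb, 20.6%, 27.0% and 26.7% within 5 kb, and 19.7%, 25.6% and 24.7% with the TSS of all annotated transcripts. In the first rows they were 19.4% in shared and 14.4% in MAC only peaks. MAC C/EBPβ lay on 20.8% of HP only peaks under the 200 bp rule, and on 44.5% of shared and 45.2% of MAC only peaks in the first rows. List members with a MAC peak numbered 271 of the main 447 with the first rows. The shared class had the highest consensus share under each of these settings. Of 134 peak counts at named genes, 67 moved by over 1.5 times when a peak had to lie in the gene or within 10 kb. The causes were not tested.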
